A study of Mus musculus with 12 samples.

Results

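The 4 Hox gene clusters of the mouse were followed through the H3K4me3 peak lists of small-intestinal epithelium. A peak belonged to a cluster when it overlapped 1 of 4 fixed windows of the mm9 genome: HoxA, chr6:52100000-52215000; HoxB, chr11:96050000-96235000; HoxC, chr15:102745000-102875000; and HoxD, chr2:74500000-74605000. The windows were chosen by position and not by signal. They held 95 of the peaks listed in 8 libraries. Overlapping peaks of different libraries merged into 33 regions, of 24352 regions genome-wide. There were 13 regions in HoxA, 10 in HoxB, 3 in HoxC and 7 in HoxD.

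The libraries were chromatin immunoprecipitations of H3K4me3, 2 for each of 4 groups of mice of mixed C57BL/6 CD1 strain. The embryonic groups were small-intestinal epithelium sorted for EpCAM, without CD31 or CD45, at embryonic days E12.5 and E14.5. The adult groups came from males 2 months old carrying the Lgr5EGFP-Cre-ERT allele: intestinal stem cells gated as Lgr5-EGFP high (ISC) and EpCAM-positive enterocytes, both at P60. The labels do not state the genotype or sex of the embryos, and the adult tissue went through crypt and villus isolation that the embryonic tissue did not. Age, sex, that allele and the dissociation cannot be told apart between adult and embryonic groups. The design calls the 2 libraries of a group biological duplicates, and each group had 1 input library that served both as control. Each sort gave 250000 cells. In such bulk material, fewer cells with the mark and less mark per cell cannot be told apart.

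Hox genes encode homeodomain transcription factors that give cells their position along the body axis. Genes are numbered along each cluster, from paralogue group 1, used towards the head, to group 13, used towards the tail. H3K4me3 is placed at promoters by complexes of the Trithorax group such as those of MLL proteins, and at Hox genes it is opposed by Polycomb complexes. In the gut, Hox genes are known for setting regional identity along the tube, in its mesenchyme as well as its epithelium.

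The members comprised 38 Hox genes: 10 of HoxA, 10 of HoxB, 9 of HoxC and 9 of HoxD. The gene table used here was of the build GRCm38, so peaks in mm9 were not assigned to single genes, and only the order of genes was taken from it. All 38 were found there by symbol. For the same reason the labelled cell types were not checked against marker genes. In rising coordinates, HoxA ran from Hoxa2 to Hoxa13, whereas HoxB ran from Hoxb13 to Hoxb1, HoxC from Hoxc13 to Hoxc4 and HoxD from Hoxd13 to Hoxd1. Positions within a window are given below in kb from its low-coordinate edge.

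Promoter sequence was held for 22 of the 38 genes in the RefSeq table of GRCm38.p6. Those without an entry were Hoxa4, Hoxb2, Hoxb3, Hoxb5, Hoxb6, Hoxb7, Hoxb9, Hoxb13, Hoxc5, Hoxc6, Hoxc8, Hoxc9, Hoxc10, Hoxc11, Hoxc12 and Hoxc13. The sequences show the CpG content of promoters at the cluster ends, since H3K4me3 is known to favour CpG-rich promoters. For each cluster the lowest- and the highest-numbered gene with an entry was taken, which in HoxC was Hoxc4 alone. Each line gives the 250 bases before the start of the gene, 5′ to 3′ on its own strand, with CG dinucleotides in capitals.
Hoxa2: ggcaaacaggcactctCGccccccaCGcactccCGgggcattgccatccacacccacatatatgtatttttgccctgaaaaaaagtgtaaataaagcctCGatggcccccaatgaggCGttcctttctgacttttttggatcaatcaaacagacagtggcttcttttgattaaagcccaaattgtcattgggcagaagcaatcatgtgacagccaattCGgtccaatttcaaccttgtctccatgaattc
Hoxa13: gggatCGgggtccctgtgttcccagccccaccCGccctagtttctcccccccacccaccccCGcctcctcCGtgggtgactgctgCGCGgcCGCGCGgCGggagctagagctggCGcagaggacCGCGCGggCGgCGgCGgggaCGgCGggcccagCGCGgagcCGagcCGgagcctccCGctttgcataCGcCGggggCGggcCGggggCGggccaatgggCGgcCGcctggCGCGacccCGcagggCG
Hoxb1: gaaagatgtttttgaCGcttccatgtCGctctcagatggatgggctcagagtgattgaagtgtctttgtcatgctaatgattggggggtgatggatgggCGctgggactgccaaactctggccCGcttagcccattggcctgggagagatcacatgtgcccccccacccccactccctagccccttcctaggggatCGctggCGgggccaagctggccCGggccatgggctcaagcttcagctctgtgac
Hoxb8: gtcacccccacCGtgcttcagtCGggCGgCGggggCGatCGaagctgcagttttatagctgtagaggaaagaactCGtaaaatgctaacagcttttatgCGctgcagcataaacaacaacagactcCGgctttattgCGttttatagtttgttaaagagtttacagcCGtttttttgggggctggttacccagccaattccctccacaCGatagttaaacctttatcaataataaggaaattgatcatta
Hoxc4: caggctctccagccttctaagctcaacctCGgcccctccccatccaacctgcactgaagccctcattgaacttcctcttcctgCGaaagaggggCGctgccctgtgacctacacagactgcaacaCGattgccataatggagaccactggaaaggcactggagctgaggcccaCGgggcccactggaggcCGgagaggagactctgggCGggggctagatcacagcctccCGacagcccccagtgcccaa
Hoxd1: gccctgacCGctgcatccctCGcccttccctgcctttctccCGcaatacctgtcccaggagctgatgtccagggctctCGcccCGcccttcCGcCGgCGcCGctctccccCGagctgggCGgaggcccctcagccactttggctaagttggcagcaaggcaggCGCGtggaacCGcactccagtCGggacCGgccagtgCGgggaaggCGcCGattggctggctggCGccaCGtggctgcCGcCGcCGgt
Hoxd13: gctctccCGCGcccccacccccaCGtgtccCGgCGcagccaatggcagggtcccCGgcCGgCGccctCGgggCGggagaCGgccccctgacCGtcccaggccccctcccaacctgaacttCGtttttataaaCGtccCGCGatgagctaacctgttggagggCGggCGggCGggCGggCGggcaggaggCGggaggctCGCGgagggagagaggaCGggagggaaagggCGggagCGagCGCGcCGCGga
Their GRCm38.p6 positions, which do not compare with the mm9 positions of the peaks, were chr6:52164832-52165081 (minus strand) for Hoxa2 and chr6:52260881-52261130 (minus) for Hoxa13. Hoxb1 lay at chr11:96365508-96365757 (plus), Hoxb8 at chr11:96281655-96281904 (plus) and Hoxc4 at chr15:103034145-103034394 (plus). Hoxd1 lay at chr2:74762730-74762979 (plus) and Hoxd13 at chr2:74667975-74668224 (plus). These stretches held 6 CG dinucleotides for Hoxa2 and 35 for Hoxa13. The 2 HoxB promoters held 7 (Hoxb1) and 12 (Hoxb8), Hoxc4 held 8, and the HoxD pair held 24 (Hoxd1) and 31 (Hoxd13). Hoxa13 and Hoxd13, both known for patterning the hindgut and the distal limb, were the richest of the 7.

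Over the full 300 bases of the table, reaching 50 bases past the start, the median was 13.5 CG per Hox promoter and 7 over all 27025 genes listed. A ratio of observed to expected CG (CG count times length over the product of the C and G counts) of at least 0.6 was found in 10 of the 22 Hox promoters, 45.5%. It was found in 36.5% of all genes. The ratio ranged from 0.257 for Hoxd11 to 1.02 for Hoxa5, the Hox factor known for lung and gut development. The sequences describe the promoters only, because no peak was placed on one of them.

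Sequencing depth ranged from 12821255 to 43259380 tags a library, and the lists held between 11111 and 17658 peaks. Replicate 2 of each group had a similar depth, between 22137910 and 25547814 tags, which allows a comparison at near-equal depth. Replicate 1 had between 12821255 and 15053166 tags except at E14.5, where it had 43259380. Peak lists carry no read counts. Where a list lacks a region, the caller reported nothing there at that depth, which does not show that the mark was absent.

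In no library did H3K4me3 form a continuous block over a Hox cluster. It lay in separate peaks of 132 to 3228 bp, with a median of 679 bp. The largest share of a window under peaks was 8.64%, in HoxA of E14.5 replicate 2. Within a cluster, gaps between neighbouring peaks reached 50631 bp in HoxD and 38587 bp in HoxC (both E12.5 replicate 2), 38250 bp in HoxA (E14.5 replicate 1) and 25382 bp in HoxB (E12.5 replicate 2). Divided into bins of 1 kb, counted as covered when at least 500 bp lay under a peak, 103 of 115 bins of HoxA were covered in no library. The same held for 168 of 185 bins of HoxB, 129 of 130 of HoxC and 103 of 105 of HoxD.

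**Figure D1:**
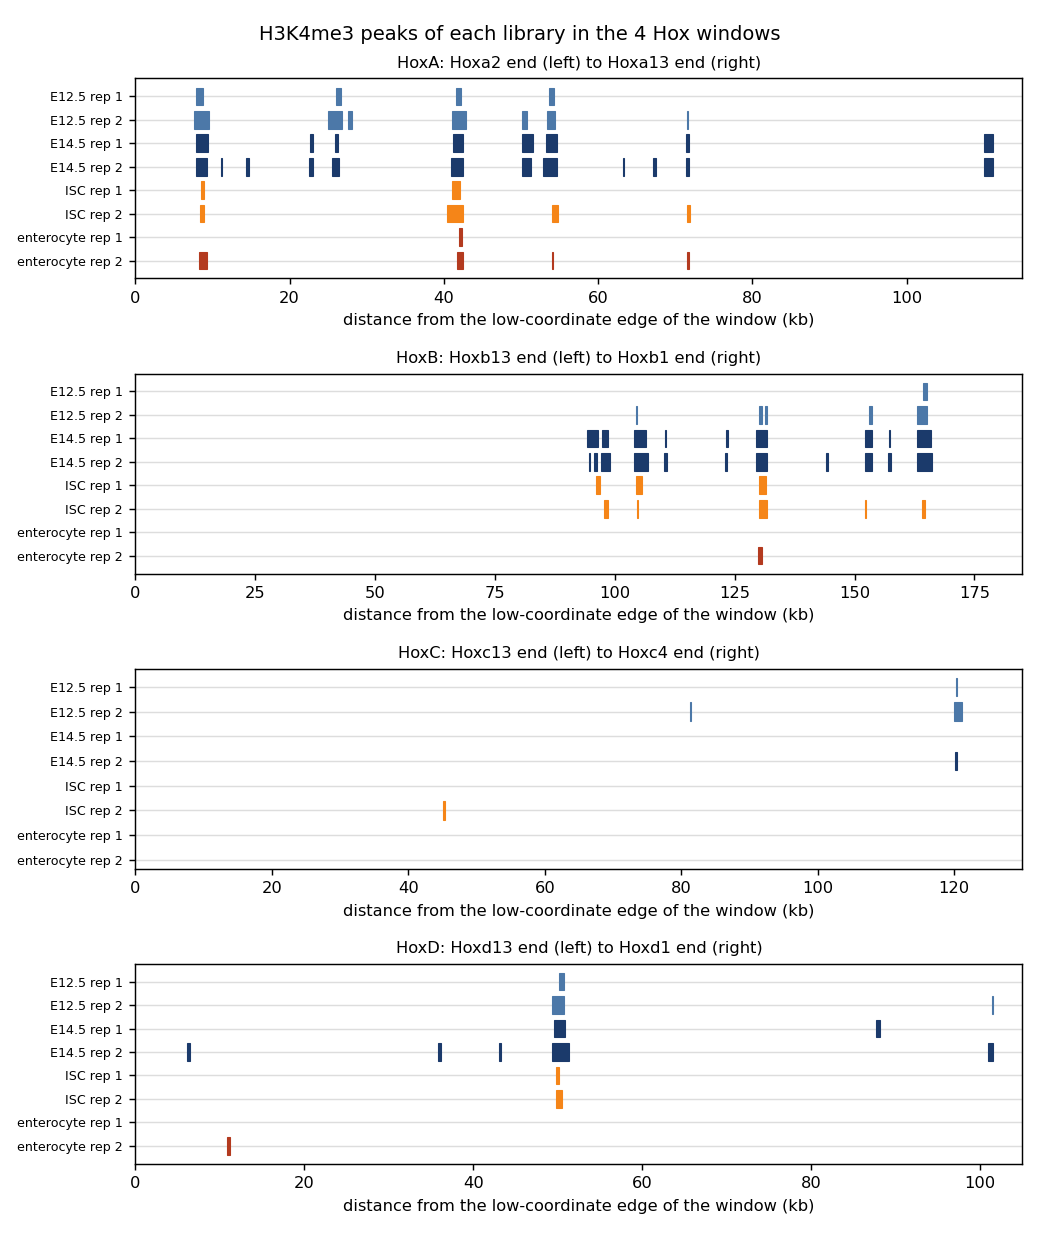
Peaks of each library in the 4 windows, against distance in kb from the low-coordinate edge; each bar is 1 peak, with an outline that widens the narrowest ones slightly. HoxA and HoxB hold rows of separate peaks that are densest at E14.5, HoxB is empty up to 94.2 kb, and HoxC and HoxD hold few.

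The Hox peaks were weak within their own lists. The authors' fold enrichment over input ranged from 2.46 to 8.30, with a median of 3.49. Ranked in its own list, the median Hox peak stood above 14.49% of the peaks in fold enrichment and above 27.0% in length. Only 2 of the 95 exceeded the median fold of their list: the HoxD peak of E14.5 replicate 1 that starts at 74549505, and the HoxA peak of enterocyte replicate 2 that starts at 52141654. Both were singled out after their values were seen. Some peaks were long without being strong. The peak of 3228 bp in HoxB of E14.5 replicate 2 was longer than 95.9% of its list, yet its fold of 5.68 exceeded that of only 31.2% of the list.

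The embryonic libraries held most of the bp under peaks in all 4 clusters, and the amount differed between clusters. HoxA had 2971 and 7931 bp under peaks in the E12.5 libraries and 8174 and 9931 bp in those of E14.5 (replicates 1 and 2). It had 1444 and 3617 bp in the ISC pair and 323 and 2135 bp in the enterocyte pair. In HoxA the adult values were therefore mostly below the embryonic ones, with ISC replicate 2 above E12.5 replicate 1. The mean was 7251.75 bp ± 2990 (SD, n = 4) in embryonic libraries and 1879.75 bp ± 1378 (n = 4) in adult ones. The difference did not pass (two-sided exact permutation p = 0.0571, adjusted p = 0.114 over the 4 clusters). The smallest p for 4 libraries against 4 is 0.0286, so an adjusted p under 0.05 needs at least 3 of the 4 clusters at that limit.

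In the full lists HoxB coverage was highest at E14.5. It had 13829 and 14524 bp under peaks there, against 866 and 3594 bp in the E12.5 libraries, 3529 and 3865 bp in the ISC pair and 0 and 736 bp in the enterocyte pair. Both E14.5 libraries had more than any of the other 6, and the ISC libraries overlapped the range at E12.5. The mean was 8203.25 bp ± 6992 in embryonic libraries and 2032.5 bp ± 1950 in adult ones (exact permutation p = 0.171, adjusted p = 0.229, n = 4 each). The E14.5 lead depended on which peaks were kept. When each list was held to the same number of strongest peaks by −log10 q, HoxB had 0 and 2340 bp in the E14.5 libraries, 866 and 2561 bp in those of E12.5, 1348 and 0 bp in the ISC pair and 0 bp in enterocyte libraries. E14.5 then no longer stood above E12.5, and the difference between adult and embryonic means shrank from -6170.75 to -1104.75 bp. The weakest peaks kept differ in strength, with a −log10 q of 13.7 and 13.3 at E14.5 and between 1.01 and 7.64 in the other lists. With 1 threshold for all lists, a −log10 q of at least 10, HoxB had 2371 and 5568 bp in the E14.5 libraries and 0 bp in the other 6. Genome-wide that threshold left 11982 and 11955 peaks in the E14.5 lists and 1441 and 6514 in those of E12.5. It left 6214 and 10205 in the ISC pair and 5338 and 10497 in the enterocyte pair. The part of list strength in these HoxB values was not tested.

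HoxD and HoxC carried little. HoxD had 590 and 1542 bp in the E12.5 libraries, 1803 and 3557 bp in those of E14.5, 294 and 697 bp in the ISC pair and 0 and 314 bp in the enterocyte pair (embryonic against adult, exact permutation p = 0.0571, adjusted p = 0.114, n = 4 each). ISC replicate 2, at 697 bp, lay above E12.5 replicate 1, so the adult and embryonic values overlapped. HoxC had 267 and 1268 bp in the E12.5 libraries, 0 and 302 bp in those of E14.5, 0 and 278 bp in the ISC pair and 0 bp in both enterocyte libraries (exact permutation p = 0.257, adjusted p = 0.257, n = 4 each). HoxC was the only cluster with its highest value at E12.5, and 4 of its 8 libraries had no peak. With 2 libraries a group, no exact test between single stages could pass, so stages are compared by region below.

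**Figure D2:**
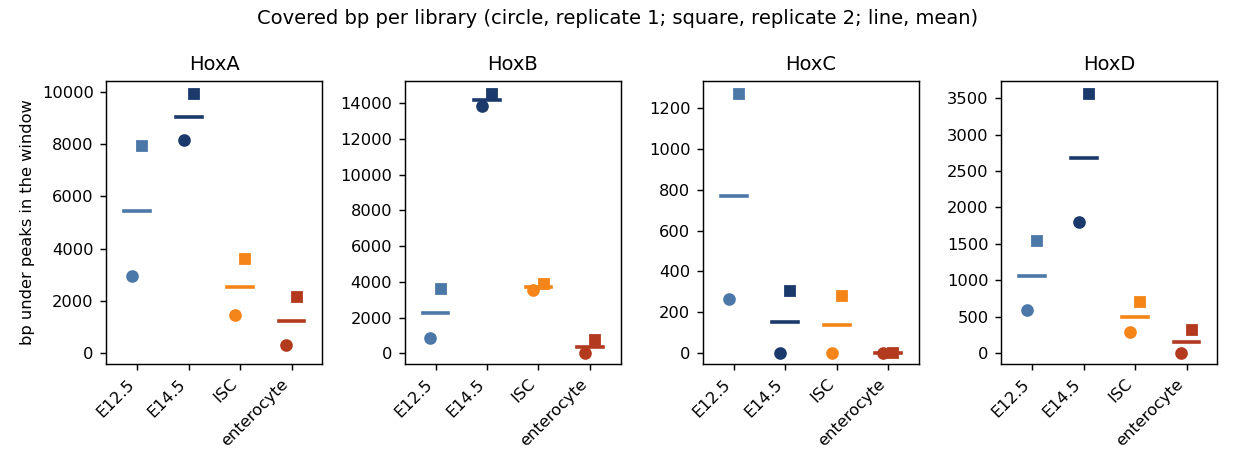
Bp under peaks in each window by group; circles are replicate 1, squares replicate 2 and lines the mean, and the vertical scale differs between clusters. HoxB at E14.5 (13829 and 14524 bp) lies apart from the other 6 libraries, and the enterocyte mean is the lowest of the 4 groups in each cluster.

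Near-equal depth allowed the stages to be set side by side. Among the 4 libraries of replicate 2, HoxA had 7931 bp (E12.5), 9931 bp (E14.5), 3617 bp (ISC) and 2135 bp (enterocytes). HoxB had 3594, 14524, 3865 and 736 bp in the same order of groups. Among replicate 1 libraries, E12.5 (15053166 tags) had 2971 bp in HoxA, and enterocytes (12821255 tags) had 323 bp. Of the E14.5 libraries, replicate 1, with 43259380 tags, had less under HoxA and HoxB peaks than replicate 2, with 22718162. List length moved with stage as well. Genome-wide, E14.5 lists covered 23132815 and 24275691 bp and E12.5 lists 11528423 and 14318920 bp, and the part of that difference in the Hox values was not tested. As a share of all bp in its list, HoxB had 0.0598% in both E14.5 libraries, 0.00751% and 0.0251% in those of E12.5, 0.0224% and 0.0191% in those of ISC, and 0% and 0.00352% in those of enterocytes. For HoxA the same share did not put E14.5 first. It was 0.0258% and 0.0554% for the E12.5 libraries, 0.0353% and 0.0409% for those of E14.5, 0.00918% and 0.0179% for the ISC pair, and 0.00208% and 0.0102% for the enterocyte pair. The highest HoxA share was thus that of E12.5 replicate 2, and the E12.5 and E14.5 values overlapped. With lists of equal number, HoxA had 2971 and 6629 bp in the E12.5 libraries and 5150 and 3689 bp in those of E14.5, which overlapped as well.

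**Figure D3:**
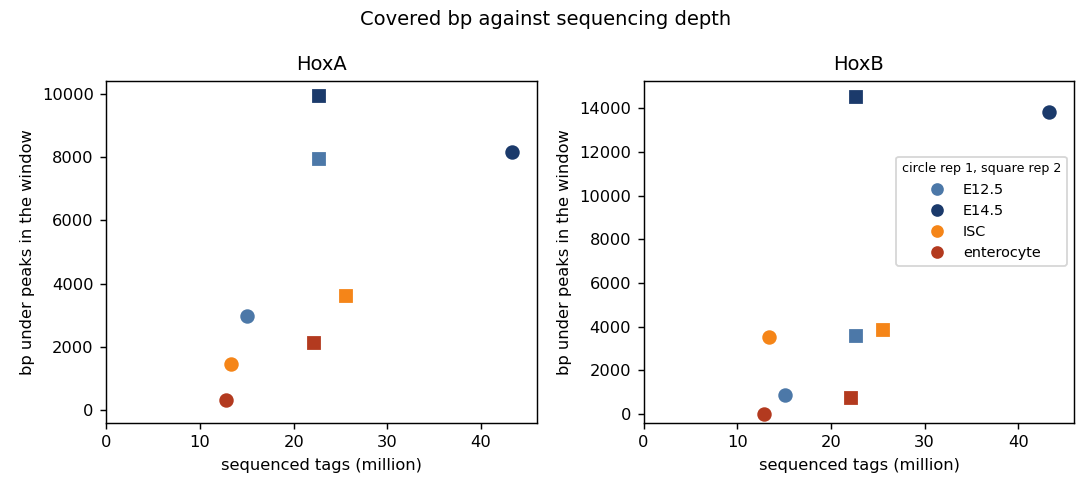
Bp under peaks in HoxA and HoxB against the tags sequenced, 1 point a library (circle, replicate 1; square, replicate 2). Among the replicate 2 libraries, of 22137910 to 25547814 tags, E14.5 has 14524 bp in HoxB and the other 3 groups between 736 and 3865 bp.

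The marked stretch of HoxA reached farthest towards Hoxa13 at E14.5. In HoxA the first peak lay near the Hoxa2 end in 7 of 8 libraries, between 52107658 and 52108500. The last peak ended at 52211185 and 52211138 at E14.5, on the Hoxa13 side of the window. It ended at 52154291 and 52171639 at E12.5, at 52142147 and 52171839 in ISC, and at 52142344 and 52171776 in enterocytes. The marked span was thus 103306 and 103228 bp in the E14.5 libraries and 323 to 63982 bp in the other 6 libraries. In replicate 2 libraries of E12.5, ISC and enterocytes it was nearly the same, at 63982, 63464 and 63469 bp. In enterocyte replicate 1 the single HoxA peak began at 52142022. The E14.5 ends rested on 1 region of low strength, with a −log10 q of 1.70 and 4.43. With lists of equal number that region dropped out, and the last peaks at E14.5 ended at 52171808 and 52171827. In the other 6 libraries the last peak then ended at 52154393 or before.

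In HoxB the part nearest Hoxb13, a gene known from the hindgut and prostate, held no peak in any library. Its first peaks began at 96144220 and 96144512 at E14.5, 96154378 in E12.5 replicate 2, and 96146077 and 96147720 in ISC. The spans from first to last peak were 71804 and 71690 bp in the E14.5 libraries, 866 and 60649 bp in those of E12.5, and 35436 and 66992 bp in the ISC pair. With the window cut into 5 equal parts, the 2 parts at the Hoxb13 end had 0 bp in all 8 libraries. The third part, the middle of the window, had 6393 and 5964 bp in the E14.5 libraries, 0 and 263 bp in those of E12.5, 2103 and 1121 bp in the ISC pair and 0 bp in the enterocyte pair. The part at the Hoxb1 end had 866 and 2532 bp in the E12.5 libraries, 4771 and 5421 bp in those of E14.5, 0 and 1053 bp in the ISC pair and 0 bp in the enterocyte pair. Hoxb1 is known for hindbrain patterning. The E12.5 libraries thus had more HoxB coverage in the part at the Hoxb1 end than in the middle part, and those of ISC more in the middle part, a contrast that was not tested.

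HoxD was marked mainly at its middle. The third of its 5 parts had 590 and 1383 bp in the E12.5 libraries, 1395 and 2322 bp in those of E14.5, 294 and 697 bp in the ISC pair and 0 bp in both enterocyte libraries. The part at the Hoxd13 end had 395 bp in E14.5 replicate 2 and 314 bp in enterocyte replicate 2, at different places, and 0 bp in the others. In HoxC, the part at the Hoxc4 end had 267 and 1109 bp in the E12.5 libraries and 302 bp in E14.5 replicate 2. The part at the Hoxc13 end had 0 bp in every library.

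The flanks of 100000 bp on either side of HoxD were called in every library, unlike the cluster itself. The low-coordinate flank, on the side of Evx2 in the gene order, had 828 to 1751 bp under peaks. The high-coordinate flank, on the side of Mtx2, had 674 to 1289 bp. Enterocyte replicate 1, with 0 bp inside HoxD, had 1221 and 1257 bp in these flanks. The flanks of HoxA, HoxB and HoxC had 0 bp on both sides in ISC and in enterocyte replicate 1. Beyond the Hoxa13 end of HoxA, where Evx1 follows in the gene order, E14.5 libraries had 867 and 992 bp, enterocyte replicate 2 had 221 bp and the other 5 libraries had 0 bp.

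Single regions were compared between stages with limma on log2(covered bp + 200), fitted over all 17679 regions called in at least 2 libraries, at an adjusted p of 0.05. Of the 33 Hox regions, 20 were tested: 8 in HoxA, 9 in HoxB, 1 in HoxC and 2 in HoxD. The other 13 were called in a single library, 8 of them in E14.5 replicate 2, and covered between 132 and 542 bp. Of the 20, 5 were tested only because both E14.5 libraries listed them, and such a region had to differ from every other group. Where both libraries of a group have 0 bp, whether or not that group is the one compared, the fit sees no spread between them and the adjusted p may be too small. Where a whole side of a comparison has 0 bp, only bp and adjusted p are given here, with no log2 change. For the 5 regions listed at E14.5 alone adjusted p is left out too, because their selection fixed the difference.

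**Figure D4:**
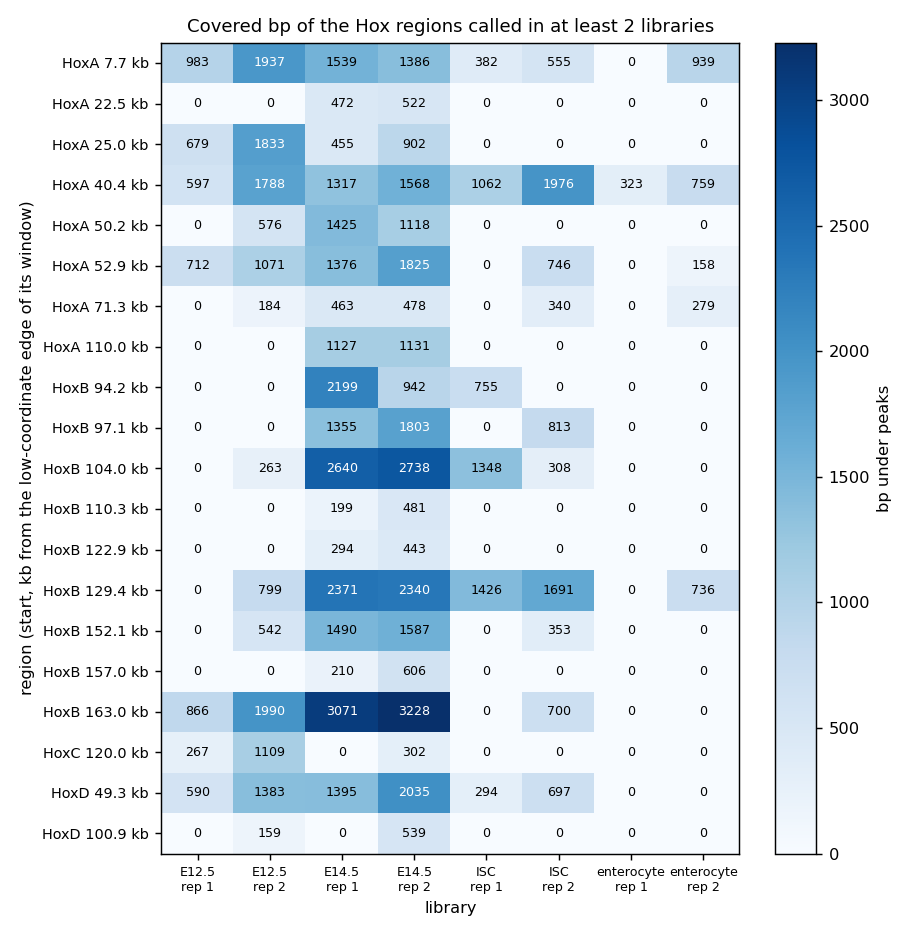
Bp under peaks, printed in each cell, for the 20 tested regions (rows, by start in kb from the low-coordinate edge of the window) in the 8 libraries (columns). The HoxA region at 40.4 kb has a value above 0 in every column, and most rows fade from E14.5 to enterocytes.

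Hox regions were shared by fewer libraries than regions elsewhere. Of the 33, 1 was called in all 8 libraries (3.03%), against 36.6% of all 24352 regions. No adult library listed 20 of the 33 (60.6%, against 19.6% of all regions), and no embryonic library listed 2 of them (6.06%, against 21.8%). Both ISC libraries listed 5 (15.2%, against 51.5%), and both enterocyte libraries listed 1 (3.03%, against 46.2%). The embryonic shares were lower than elsewhere too. Both E12.5 libraries listed 7 (21.2%, against 43.7%), and both E14.5 libraries listed 18 (54.5%, against 64.9%). A single library listed 13 of the 33 (39.4%, against 27.4%).

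The region called throughout lay in HoxA at chr6:52140439-52142875, 40.4 kb into the window and the longest of that cluster at 2437 bp. It had 597 and 1788 bp in the E12.5 libraries, 1317 and 1568 bp in those of E14.5, 1062 and 1976 bp in the ISC pair and 323 and 759 bp in the enterocyte pair. Its adult and embryonic values overlapped, with ISC replicate 2 the highest of all, and it was not called (log2 change in adult against embryonic libraries -0.43 ± 0.33 SE, adjusted p = 0.372). The region at the Hoxa2 end (chr6:52107658-52109594) was called in 7 libraries, with 983 and 1937 bp in the E12.5 libraries, 1539 and 1386 bp in those of E14.5, 382 and 555 bp in the ISC pair and 0 and 939 bp in the enterocyte pair (adjusted p = 0.0831).

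From E12.5 to E14.5, Hox regions were called longer in HoxA and HoxB and none shorter. There were 7 longer regions of 20, 2 in HoxA and 5 in HoxB, where 15.2% of all tested regions were called longer and 1.86% shorter (17.1% in either direction). In 6 of the 7 both E12.5 libraries had 0 bp, and 5 were tested only through the E14.5 libraries, so the count does not set the Hox windows apart. Without E14.5 replicate 1, or without E14.5 replicate 2, 0 of the 7 regions were called. The 5 listed at E14.5 alone could then not be tested, and the other 2 no longer passed. Calls of longer regions genome-wide fell from 2689 to 194 and 165 in these settings. Without E12.5 replicate 1, 4 were called, 3 longer and 1 shorter. Quantile normalization left 1 longer and 2 shorter.

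The region nearest the Hoxa13 end, chr6:52210008-52211185, had 1127 and 1131 bp in the E14.5 libraries and 0 bp in the other 6 libraries. Its peaks were weak, with a fold of 2.79 in replicate 1 and 4.37 in replicate 2. The shorter HoxA region at chr6:52122545-52123069 had 472 and 522 bp in the E14.5 libraries and 0 bp elsewhere. Both were thus listed at E14.5 alone, in both libraries, so their selection fixed the direction of the call.

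Of the 5 HoxB regions, 2 were listed by libraries of other groups too. The region at chr11:96153950-96156816 had 0 and 263 bp in the E12.5 libraries, 2640 and 2738 bp in those of E14.5, 1348 and 308 bp in the ISC pair and 0 bp in the enterocyte pair. Its E14.5 values lay above all others, and it was longer at E14.5 than at E12.5 by 2.86 ± 0.70 (log2, SE, adjusted p = 0.047). The region at chr11:96147130-96148932 had 0 bp in the E12.5 libraries, 1355 and 1803 bp in those of E14.5, 0 and 813 bp in the ISC pair and 0 bp in the enterocyte pair (adjusted p = 0.0466). Both calls were near the threshold, and they were lost in 10 of 15 and 9 of 14 alternatives.

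The other 3 HoxB regions called longer were short and listed at E14.5 alone. They had 199 and 481 bp at chr11:96160314-96160794, 294 and 443 bp at chr11:96172885-96173551 and 210 and 606 bp at chr11:96207023-96207628. A neighbour, chr11:96144220-96146831, differed between replicates of one group: it had 755 bp in ISC replicate 1 and 0 bp in ISC replicate 2. The E14.5 libraries had 2199 and 942 bp there, and the other 4 had 0 bp. It was called in no comparison.

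From E14.5 to ISC the direction was the opposite: 6 of 20 Hox regions were called shorter, 3 in HoxA and 3 in HoxB, and 0 longer. Of all tested regions, 11.9% were called shorter and 2.87% longer (14.7% in either direction). This comparison shares the E14.5 libraries with the one before, and 5 of the 6 regions are those listed at E14.5 alone. The 6th, chr6:52124958-52126790 in HoxA, had 679 and 1833 bp in the E12.5 libraries, 455 and 902 bp in those of E14.5 and 0 bp in all 4 adult libraries (ISC against E14.5, adjusted p = 0.0429). That call was lost in 11 of 17 alternatives, with an adjusted p of up to 0.619. The regions listed at E14.5 alone had to be shorter in ISC, because only the E14.5 libraries brought them into the test. Without E14.5 replicate 1 or replicate 2, 0 regions were called.

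No Hox region was called between ISC and enterocytes. The limma test called 0 of the 20 regions between them, and 3 had an unadjusted p under 0.05. The fitted change was towards shorter in enterocytes for 11 of the 20 and towards longer for 0. The remaining regions had 0 bp in both ISC and both enterocyte libraries, so they could not be called. The count of 0 therefore does not show that the windows were stable. Of all regions, 4.35% were called longer in enterocytes and 3.17% shorter (7.52% in either direction). The lowest adjusted p in the windows was 0.0705, at the longest HoxD region, chr2:74549293-74551327, which had 294 and 697 bp in the ISC pair and 0 bp in both enterocyte libraries. With a pseudocount of 50 bp it was called (adjusted p = 0.0176). The HoxB region at chr11:96179411-96181781 had 1426 and 1691 bp in the ISC pair and 0 and 736 bp in the enterocyte pair. It was the only HoxB region that an enterocyte library listed. Leaving out ISC replicate 1 gave 1 call, at chr11:96147130-96148932 (adjusted p = 0.0127). Leaving out enterocyte replicate 2 gave 1 call, at chr6:52107658-52109594 (adjusted p = 0.0409).

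Between adult and embryonic libraries, regions of all 4 clusters were called shorter in the adult. There were 10 of 20, with 5 in HoxA, 3 in HoxB, 1 in HoxC and 1 in HoxD, and 0 longer. Genome-wide, 17.8% of regions were called shorter and 13.7% longer (31.5% in either direction). No adult library listed 7 of the 10, and 4 were tested only through the E14.5 libraries. The median log2 change over the 20 was -0.95, against -0.06 over all tested regions. With a pseudocount of 1000 bp the Hox median was -0.42, and with 50 bp it was -1.56. These medians come from sets of unlike make-up. No adult library listed 9 of the 20, against 2197 of all 17679 tested regions. Of the 20, 5 were tested only through the E14.5 libraries and had to be shorter in the adult, against 1289 of all tested regions. Without E14.5 replicate 1 or replicate 2, 3 regions were called.

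Adult libraries did list 3 of the 10. The longest HoxB region, chr11:96212953-96216201 towards Hoxb1, had 866 and 1990 bp in the E12.5 libraries, 3071 and 3228 bp in those of E14.5, 0 and 700 bp in the ISC pair and 0 bp in the enterocyte pair. Every adult value lay below every embryonic one (log2 change -2.99 ± 0.49, adjusted p = 0.00693). With lists of equal number this region was also called shorter at E14.5 than at E12.5 (adjusted p = 0.00197), which the full lists did not show. The longest HoxD region, in the middle of that cluster, had 590 and 1383 bp in the E12.5 libraries and 1395 and 2035 bp in those of E14.5, beside the adult values given above (log2 change -2.01 ± 0.28, adjusted p = 0.00375). Here ISC replicate 2, with 697 bp, exceeded E12.5 replicate 1. The HoxA region at chr6:52152865-52154729 had 712 and 1071 bp in the E12.5 libraries, 1376 and 1825 bp in those of E14.5, 0 and 746 bp in the ISC pair and 0 and 158 bp in the enterocyte pair (log2 change -2.06 ± 0.51, adjusted p = 0.0302). The groups overlapped in ISC replicate 2 here too.

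Of the 7 that no adult library listed, 3 were listed at both embryonic stages. The HoxA region at chr6:52124958-52126790, described above, had an adjusted p of 0.0023. The HoxA region at chr6:52150155-52151579 had 0 and 576 bp in the E12.5 libraries and 1425 and 1118 bp in those of E14.5 (adjusted p = 0.0358). The longest HoxC region, chr15:102865002-102866110 on the Hoxc4 side, had 267 and 1109 bp in the E12.5 libraries and 0 and 302 bp in those of E14.5 (adjusted p = 0.0464). That HoxC region was the only one tested in its cluster, and it was longest at E12.5. The other 4 were listed at E14.5 alone, so their selection fixed the direction.

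The 3 tested regions not yet given were called in no comparison. The HoxA region at chr6:52171346-52171839 was short in each library that listed it, with 184 bp in E12.5 replicate 2, 463 and 478 bp in the E14.5 pair, 340 bp in ISC replicate 2 and 279 bp in enterocyte replicate 2. It set the end of the HoxA stretch in replicate 2 of E12.5, ISC and enterocytes. The HoxB region at chr11:96202075-96203661 had 542 bp in E12.5 replicate 2, 1490 and 1587 bp in the E14.5 pair and 353 bp in ISC replicate 2. The HoxD region at chr2:74600919-74601526, towards Hoxd1, had 159 bp in E12.5 replicate 2 and 539 bp in E14.5 replicate 2. None of the 3 was listed in replicate 1 of E12.5, ISC or enterocytes, the libraries of lowest depth.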

How the data were processed

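H3K4me3 ChIP-seq peak lists of 8 libraries were used; the 4 input libraries were used only through the authors' peak calling. Per the submitters' processing notes, Bowtie 1.1.2 and mm9 were used. Per the file headers, broad peaks were called for each library with MACS 2.0.10.20130712 at a q-value cutoff of 0.01, and replicates were not pooled. The lists nevertheless held peaks weaker than that cutoff. Their lowest −log10 q lay between 1.01 and 1.09, and that of the Hox peaks was 1.21. Not every Hox peak therefore had a q under 0.01. Per the file headers, the deposited columns are peak length, pileup signal, −log10 p, −log10 q and fold enrichment over input. Since the authors deposited no counts, covered length depends on depth and caller.

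Overlapping peaks were merged over the 8 libraries. Covered bp were scaled by medians over regions called in all 8 libraries (factors 0.72 to 1.28), and log2(bp + 200) was fitted in limma 3.58.1 (R 4.3.3) with a trend, adjusted (Benjamini-Hochberg) over 17679 regions. Coverage of windows was tested with exact permutation tests. Tested on simulated data for enterocyte against ISC over 17679 regions, the fit recovered 0 of 67 regions changed by 0.5 (log2), 9 of 67 by 1 and 32 of 66 by 2. The simulation spread each region around its mean over all 8 libraries, so groups lying wholly at 0 bp were not modelled. It also changed fewer regions than were called in the real lists, where recovery may differ. Regions named are the longest of each cluster and all called ones; others named were chosen after their values were seen. The members and lists were chosen with earlier results of these data known.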

Additional observations from a re-analysis of the deposited data

Results flagged for a closer look

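Among the 4 adult libraries, ISC replicate 2 stood apart in 3 values. It had 278 bp under peaks in HoxC, 813 bp in the HoxB region at chr11:96147130-96148932 and 700 bp in the HoxB region at chr11:96212953-96216201. The other 3 adult libraries had 0 bp in each. With 25547814 tags it was the deepest adult library, and the part of depth in these values was not tested. In all, 36 sets of 4 libraries were looked at. Where 3 of 4 values are 0 bp, the 4th is flagged whatever its size. The usual rate of about 1 in 20 by chance therefore does not apply to these 3. ISC replicate 1 had the same pattern at chr11:96144220-96146831, with 755 bp there and 0 bp in the other 3 adult libraries.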

How the results depend on the processing

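The 4 differences in covered bp kept their direction under every alternative run. None passed in any, which the design nearly fixes (smallest p 0.0286). HoxA and HoxD reached that p, adjusted p = 0.0571, when scaled, as a share of the list, with lists of equal number or without E12.5 replicate 1. With −log10 q of at least 10 the exact permutation p was 0.429 for HoxA, HoxB and HoxD. The differences on leaving out 1 library ranged over -6798.92 to -4478.92 bp for HoxA, -8616.5 to -4063.83 for HoxB, -542.833 to -120.167 for HoxC and -1974.42 to -985.417 for HoxD. No HoxC peak was left at −log10 q of at least 10, so that setting gave no value there. Counts of called Hox regions moved more. For E14.5 against E12.5 (7), there were 3 with quantile normalization, 4 with regions of at least 1 library, 0 with at least 4, 3 with lists of equal number (1 longer, 2 shorter), and 0 to 7 with 1 library left out (4 without E12.5 replicate 1). With −log10 q of at least 10 they were other regions: HoxA at 7.7, 25, 52.9 and 71.3 kb, HoxB at 129.4 kb and HoxD at 49.3 kb. For ISC against E14.5 (6), there were 0 with at least 4 libraries, 3 with lists of equal number and 0 to 6 with 1 library left out. For enterocyte against ISC (0), there was 1 with a pseudocount of 50, 1 with lists of equal number and 0 to 1 with 1 library left out. For adult against embryonic (10), there were 4 with at least 4 libraries, 6 with −log10 q of at least 10 and 3 to 9 with 1 library left out. With quantile normalization the HoxB regions at 110.3 and 122.9 kb changed sign for E14.5 against E12.5, to -0.0494 and -0.0311 (log2), where the median of all regions was -0.083 instead of 0.191. The cause was not tested.

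The replicate number as a block gave 6, 7, 1 and 10 called regions in the 4 comparisons in the order above. Same-numbered libraries deviated together with r between 0.021 and 0.311, over 0.1 in 4 of 6 pairs of groups, so the numbers were not taken as pairs. The 1 region called between enterocytes and ISC with the block was the HoxD region at 49.3 kb (adjusted p = 0.0393).

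Between adult and embryonic libraries, the calls at the HoxD region at 49.3 kb and the HoxA region at 25 kb held in 17 of 17 alternatives. That at the HoxB region at 163.0 kb held in 16 of 16. Alternatives that left a region untested are not counted. For this HoxB region that was −log10 q of at least 10, where only E14.5 replicate 2 kept a peak. Calls were lost for the HoxC region at 120.0 kb in 10 of 15, for the HoxB region at 110.3 kb in 9 of 12, and for the HoxA regions at 50.2 kb in 6 of 14 and at 52.9 kb in 6 of 17. Without read counts, no limit can be put on the mark where a peak is missing.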
